A study of Mus musculus with 16 samples.

Results

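The let-7 microRNAs (miRNAs) were followed in mouse serum across 4 ages. The family was taken as 10 mature miRNAs on the array by name: the main (5p) strands let-7a, let-7b, let-7c, let-7d, let-7e, let-7f, let-7g and let-7i, and the opposite (3p) strands of let-7b and let-7d. They are 10 of the 1881 mouse miRNAs measured, and 9 of them were among the 285 miRNAs bright enough to be tested. The study asked which serum miRNAs change as mice age. Serum came from the heart blood of male mice aged 4, 8, 36 or 58 weeks, 4 mice at each age. The labels name no strain, treatment or genetic change for any group, so age is the 1 factor the labels give, and the array slide differed along with it between the 2 younger and the 2 older groups. RNA from each serum, 1 ng as input, carried the dye Cy3 and was read on its own 1-colour Agilent miRNA array. Nothing in the labels says that samples were pooled.

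let-7 miRNAs are short RNAs that bind messenger RNAs through a seed near their 5′ end and lower the output of those messengers. Their known targets include the growth genes Hmga2, Myc and Ras, and the RNA-binding protein Lin28 blocks their maturation in early embryos and stem cells. They accumulate as cells differentiate, are abundant in most adult tissues and in blood cells, and circulate in serum in vesicles and protein complexes.

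The mature sequences are shown because the members differ by few bases and because base content separates the 5p from the 3p members in the data. They are from RefSeq, build GRCm38.p6, written 5′ to 3′ with the seed, bases 2 to 8, in capitals. All 10 names matched an entry, and the prefix mmu, for mouse, is left off elsewhere.
mmu-let-7a-5p: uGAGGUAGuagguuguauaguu
mmu-let-7b-5p: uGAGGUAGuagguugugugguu
mmu-let-7c-5p: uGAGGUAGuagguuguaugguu
mmu-let-7d-5p: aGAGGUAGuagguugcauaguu
mmu-let-7e-5p: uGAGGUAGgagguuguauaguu
mmu-let-7f-5p: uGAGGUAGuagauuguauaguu
mmu-let-7g-5p: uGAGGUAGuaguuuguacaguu
mmu-let-7i-5p: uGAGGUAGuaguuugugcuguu
mmu-let-7b-3p: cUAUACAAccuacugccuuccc
mmu-let-7d-3p: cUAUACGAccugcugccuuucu

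All 8 of the 5p members share the seed GAGGUAG. Counted from the 5′ end of let-7a-5p, let-7c-5p differs by A19G, let-7e-5p by U9G and let-7f-5p by G12A. The members let-7b-5p (A17G and A19G), let-7d-5p (U1A and U16C) and let-7g-5p (G12U and U18C) each differ at 2 positions. The most distant member, let-7i-5p, has 4 changes: G12U, A17G, U18C and A19U. Both 3p members carry seeds of their own, and let-7d-3p differs from let-7b-3p by A7G, A12G, C20U and C22U. The 5p members hold 0 or 1 C and 7 to 10 G. In contrast, let-7b-3p holds 10 C and 1 G, and let-7d-3p holds 8 C and 3 G.

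The hairpins lie in clusters and singly in the genome. In GRCm38, the hairpins let-7a-1, let-7f-1 and let-7d lie within 2261 bases at chr13:48536012-48538272 on the minus strand. The hairpins let-7c-2 and let-7b lie within 801 bases at chr15:85706603-85707403 on the plus strand. let-7g is on chromosome 9 (chr9:106178840-106178927, plus strand), let-7i on chromosome 10 (chr10:122985640-122985724, minus strand) and let-7e on chromosome 17 (chr17:17830352-17830444, plus strand). let-7a, let-7c and let-7f each have a copy elsewhere as well, let-7a-2 on chromosome 9, let-7c-1 on chromosome 16 and let-7f-2 on chromosome X. Copies of the same mature sequence cannot be told apart by the array. Each 5p member was read by 2 probes and each 3p member by 4, and cross-reaction between members that differ by 1 or 2 bases was not tested.

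Each miRNA carries a detection call made by Agilent's Feature Extraction software. The 5p members let-7a, let-7b, let-7c, let-7g and let-7i were detected on 15 of 16 arrays, let-7f-5p on 14 and let-7d-5p on 13. let-7e-5p was detected on 0 arrays, and its background-subtracted signal reached at most 0.88. Of the opposite strands, let-7d-3p was detected on all 16 arrays and let-7b-3p on 11. Signals are given below as log2 of the scaled signal, with a floor of 1.92 for dim values, and levels of different miRNAs are not set against each other because probes differ in response.

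The arrays differed in background, as the SD of their negative-control spots shows. 36-week replicate 4 had an SD of 59.3, 4-week replicate 1 of 19.1 and 4-week replicate 4 of 7.45, while the other 13 ranged from 1.82 to 4.45. Feature Extraction marked those 3 arrays for evaluation. The arrays of 4 and 8 weeks lay on 1 slide and those of 36 and 58 weeks on another, so only 8 against 4 weeks and 58 against 36 weeks lie within a slide, and in every other comparison age and slide cannot be told apart. Between replicates of an age, the log2 signals of the tested miRNAs correlated at r = 0.08 to 0.97 over 24 pairs.

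On 36-week replicate 4, the 7 tested 5p members were all undetected and sat at the floor, with background-subtracted signals of -159.6 for let-7f-5p up to -14.1 for let-7b-5p. On the same array the 3p members stood at their highest values of the series, 8.89 for let-7b-3p and 9.19 for let-7d-3p. Of 67 miRNAs detected on all the other 15 arrays, 43 (64.2%) were undetected on this array, and the 67 include 6 let-7 members, of which 5 were undetected. Results that rest on this array are therefore given with and without it.

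let-7a-5p, the reference member of the family, measured 7.10, 6.08, 6.68 and 6.81 at 4 weeks, replicates 1 to 4. It measured 6.58, 7.09, 5.38 and 5.20 at 8 weeks, 7.49, 7.55, 7.74 and the floor of 1.92 at 36 weeks, and 5.86, 7.35, 6.60 and 6.39 at 58 weeks. The 3 detected arrays of 36 weeks lay above all arrays of the other ages. Without the array at the floor, the means were in the order 36 weeks (7.59 ± 0.13, SD, n = 3), 4 weeks (6.67 ± 0.43, n = 4), 58 weeks (6.55 ± 0.62) and 8 weeks (6.06 ± 0.92), and the last 3 overlapped.

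let-7c-5p, 1 base from let-7a-5p, measured 8.46, 7.39, 7.80 and 8.00 at 4 weeks and 7.82, 8.18, 6.58 and 6.73 at 8 weeks. At 36 weeks it measured 8.63, 8.76, 8.95 and 1.92, and at 58 weeks 7.29, 8.38, 7.87 and 7.58. Again the detected arrays of 36 weeks were above all others, and the other 3 ages overlapped. let-7b-5p, which shares a cluster with a copy of let-7c, measured 8.00, 7.72, 7.53 and 7.55 at 4 weeks, 7.58, 7.73, 6.35 and 7.10 at 8 weeks, 8.06, 8.32, 8.84 and 1.92 at 36 weeks, and 7.48, 7.97, 7.73 and 7.40 at 58 weeks. Its detected arrays of 36 weeks also stood above the rest.

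let-7d-5p comes from the cluster on chromosome 13, and let-7f-5p from that cluster and a copy on chromosome X. let-7d-5p measured 2.56, 4.25, 4.52 and 4.90 at 4 weeks, 3.87, 4.82, 2.02 and 2.61 at 8 weeks, 5.44, 5.63, 6.14 and 1.92 at 36 weeks, and 3.95, 5.16, 4.89 and 4.73 at 58 weeks. let-7f-5p measured 4.23, 4.17, 4.92 and 4.72 at 4 weeks, 4.68, 5.43, 3.04 and 2.67 at 8 weeks, 5.96, 5.88, 5.75 and 1.92 at 36 weeks, and 3.50, 5.71, 4.90 and 4.81 at 58 weeks. For both, the detected arrays of 36 weeks were above every array of 4, 8 and 58 weeks, and the 8-week arrays spread widest among the other ages (SD 1.26 for let-7d-5p and 1.31 for let-7f-5p, n = 4). let-7d-5p was undetected on 4-week replicate 1, 8-week replicate 3 and 36-week replicate 4, and let-7f-5p on the first and last of these.

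let-7g-5p and let-7i-5p come from single hairpins. let-7g-5p measured 7.32, 6.68, 7.04 and 7.19 at 4 weeks, 6.11, 6.97, 6.32 and 4.58 at 8 weeks, 7.53, 7.39, 6.06 and 1.92 at 36 weeks, and 6.33, 6.91, 7.22 and 6.44 at 58 weeks. All 4 ages overlapped for let-7g-5p, with 36-week replicate 3 lower than the other detected arrays of its age. let-7i-5p measured 7.31, 7.20, 7.10 and 7.19 at 4 weeks, 6.45, 7.18, 6.79 and 6.46 at 8 weeks, 7.57, 7.52, 7.65 and 1.92 at 36 weeks, and 7.38, 7.45, 7.69 and 7.32 at 58 weeks. Without the array at the floor it had the smallest SD of the tested 5p members at each age, and both older ages lay above every 4-week and 8-week array except for that array. At 58 weeks, with all arrays kept, let-7i-5p was the 1 member without overlap against 4 weeks (3.86% of the 285 were higher without overlap) and against 8 weeks (7.72%). Those ages lay on different slides. Against 4 weeks the gap was narrow, from 7.31 to 7.32. Without scaling, let-7i-5p differed by -0.77 at 58 against 4 weeks, and the lack of overlap was lost against both ages. With quantile normalization it was lost against 4 weeks.

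The 3p strands followed another order. let-7b-3p measured 7.49, 2.04, 3.17 and 4.85 at 4 weeks, 1.92, 1.92, 4.67 and 1.92 at 8 weeks, 3.81, 4.35, 5.13 and 8.89 at 36 weeks, and 5.50, 5.62, 2.47 and 4.85 at 58 weeks. It was detected on 3, 1, 4 and 3 of 4 arrays at the successive ages. let-7d-3p measured 7.83, 3.45, 3.74 and 5.32 at 4 weeks, 3.99, 3.68, 5.64 and 2.92 at 8 weeks, 4.93, 4.99, 5.55 and 9.19 at 36 weeks, and 6.06, 6.38, 4.86 and 5.98 at 58 weeks. For both strands the highest arrays were 36-week replicate 4 and 4-week replicate 1, and the ages overlapped. From the youngest to the oldest age, means of let-7d-3p were 5.09 ± 2.01, 4.06 ± 1.15, 6.17 ± 2.03 and 5.82 ± 0.66 (SD, n = 4 each), and those of let-7b-3p were 4.39 ± 2.37, 2.61 ± 1.37, 5.54 ± 2.30 and 4.61 ± 1.47.

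**Figure D1:**
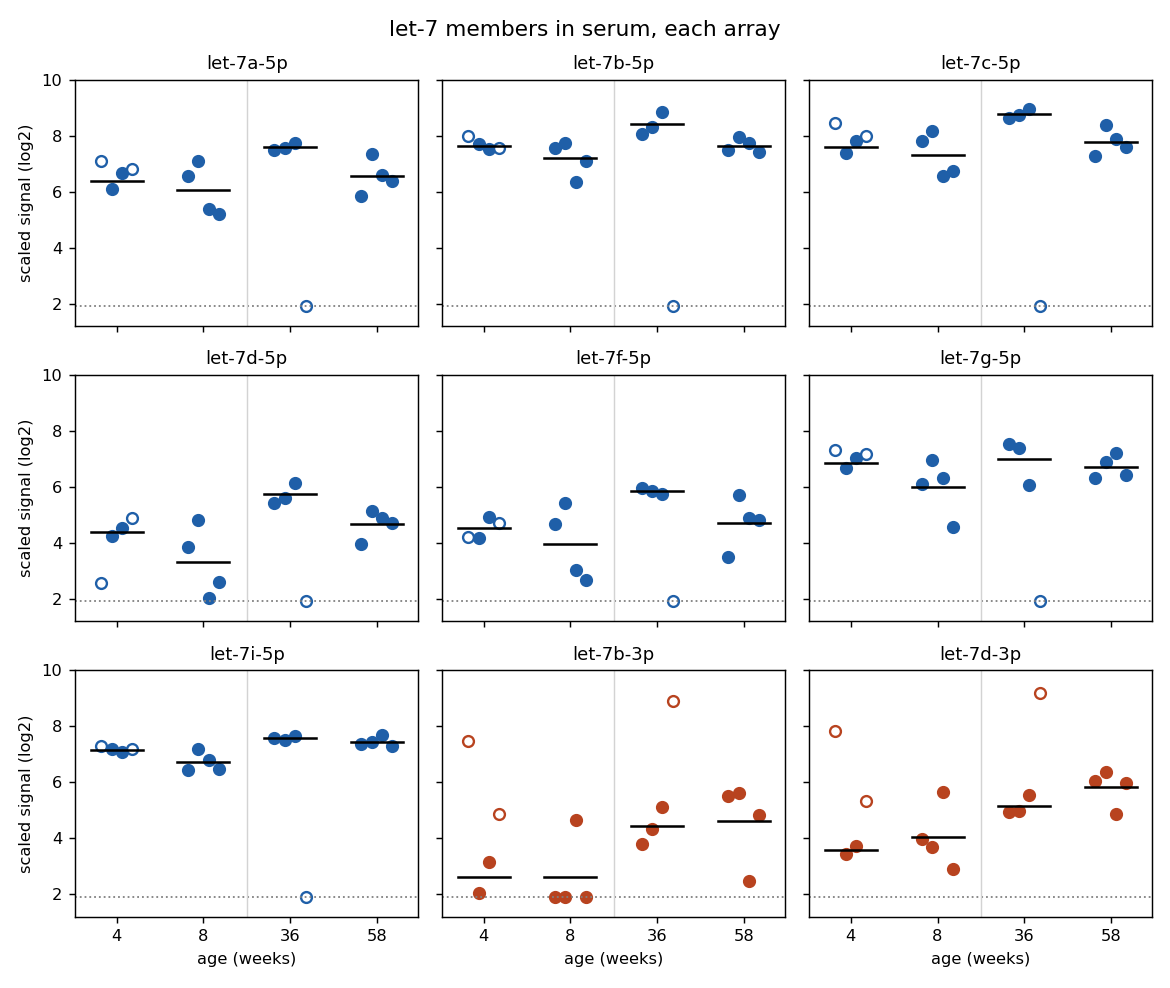
Scaled signal (log2) of the 9 tested members by age in weeks, 1 point per array in the order of replicates, 5p members in blue and 3p members in orange. Hollow points are the 3 arrays that Feature Extraction marked, the black line is the mean of the other arrays of an age, the dotted line is the floor of 1.92 and the grey vertical line separates the slides. The hollow point at 36 weeks is at the floor for the 7 5p members and at 8.89 and 9.19 for the 3p members.

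None of the 9 tested members passed any of the 8 comparisons of ages over all 16 arrays (limma, adjusted p under 0.05 over the 285 miRNAs). Over all 285, 0.351% passed the trend with age, 0.351% the test of any difference, 0.351% each 36 against 4 and 58 against 4 weeks, and 0% each of the other 4 pairs. At an unadjusted p under 0.05, the 1 call among the members was let-7b-3p at 36 against 8 weeks, in a comparison where 29.8% of all tested miRNAs reached that level. That call rested on 36-week replicate 4: without it the unadjusted limma p of let-7b-3p was 0.136 and the adjusted p 0.445. The corresponding shares of all tested miRNAs were 8.77% for the trend, 4.56% for any difference, 2.11% for 8 against 4, 3.51% for 36 against 4, 4.56% for 58 against 4, 5.26% for 58 against 8 and 1.75% for 58 against 36 weeks, each with 0 members.

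For the trend, given as the slope on log2 of age (a change per doubling), the smallest p-values belonged to let-7d-3p (0.37 ± 0.24 SE), let-7d-5p (0.28 ± 0.19) and let-7b-3p (0.36 ± 0.30), each with a limma adjusted p of 0.525. The 7 5p members had a median slope of -0.02 with 2 above 0, against 0.12 over all 285. Without 36-week replicate 4 all 7 were above 0, with a median of 0.13 against 0.10 over all, and the slopes of let-7d-3p and let-7b-3p were 0.26 and 0.22. In the test of any difference, let-7b-3p, let-7d-3p and let-7d-5p came first, with limma adjusted p-values of 0.477, 0.477 and 0.512.

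For 8 against 4 weeks, both on the first slide, all 9 members had lower means at 8 weeks, as did 229 of the 285. The median was -0.59 over the 5p members and -0.72 over all tested. The smallest p-values were those of let-7b-3p (-1.78 ± 1.26 SE, limma adjusted p = 0.536), let-7g-5p (-1.06 ± 0.95, adjusted p = 0.548) and let-7d-3p (-1.03 ± 1.04, adjusted p = 0.600). Without scaling, the median of all tested moved to -1.20, and with quantile normalization to 0.18, where 5 of the 9 members were higher at 8 weeks, so the shared lower level depends on the scaling. The 3p values rested on 4-week replicate 1, without which let-7b-3p differed by -0.75 and let-7d-3p by -0.11. Without all 3 marked arrays both 3p members were higher at 8 weeks, by 0.0035 and 0.46, and the 7 5p members stayed lower, with a median of -0.43.

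At 58 against 4 weeks the median was -0.05 over the 5p members, 0.48 over the 3p members and near 0 over all tested. The direction depended on the scaling: without scaling 0 of the 9 members were higher at 58 weeks (5p median -1.08, all tested -0.95), and with quantile normalization all 9 were (5p median 0.33, all tested 0.05). let-7d-5p differed by 0.62 (95% interval -1.24 to 2.48), let-7d-3p by 0.73 (-1.49 to 2.95) and let-7g-5p by -0.33 (-2.37 to 1.70), each with a limma adjusted p of 0.998. These intervals allow differences of over 1 log2 unit either way. At 58 against 8 weeks all 9 members were higher, with a 5p median of 0.73 against 0.71 over all tested. Without scaling 6 of the 9 were higher (5p median 0.18, all tested 0.16), with quantile normalization 8 of the 9 (0.19 and 0.05), and with array weights 6 of the 9 (0.08 and 0.77). The smallest p-values were those of let-7d-3p (1.76 ± 1.04 SE), let-7b-3p (2.0 ± 1.26) and let-7d-5p (1.35 ± 0.87), each with a limma adjusted p of 0.408.

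The 3 comparisons that involve 36 weeks turned on the array at the floor. At 36 against 4 weeks, let-7g-5p (-1.33 ± 0.95 SE), let-7i-5p (-1.03 ± 0.95) and let-7d-3p (1.08 ± 1.04) had the smallest p-values (limma adjusted p = 0.656 each). Without 36-week replicate 4, let-7i-5p differed by 0.38, let-7g-5p by -0.06 and let-7d-3p by 0.07. At 36 against 8 weeks, let-7b-3p (2.94 ± 1.26), let-7d-3p (2.11 ± 1.04) and let-7d-5p (1.45 ± 0.87) came first, with limma adjusted p-values of 0.151, 0.151 and 0.224. Without that array let-7b-3p differed by 1.82 ± 1.15 and let-7d-3p by 1.1 ± 0.90, each with a limma adjusted p of 0.445. For let-7b-3p, 3 of the 4 8-week arrays were at or next to the floor and undetected, so its fitted difference depends on the floor. At 58 against 36 weeks, let-7i-5p (1.29 ± 0.95), let-7g-5p (0.99 ± 0.95) and let-7b-5p (0.86 ± 1.1) came first (adjusted p = 0.717 each), and without that array their differences were -0.12, -0.27 and -0.76.

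Without 36-week replicate 4, all 7 5p members were higher at 36 than at 8 weeks: let-7d-5p by 2.41 ± 0.67 (SE), let-7f-5p by 1.91 ± 0.64, let-7a-5p by 1.53 ± 0.50, let-7c-5p by 1.45 ± 0.46, let-7b-5p by 1.22 ± 0.39, let-7g-5p by 1.00 ± 0.54 and let-7i-5p by 0.86 ± 0.31. None passed (lowest limma adjusted p = 0.303), although 6 of the 7 had an unadjusted p under 0.05, as did 8.42% of all tested miRNAs. Their median of 1.45 compares with 0.77 over all 285. In 6 of the 7, all but let-7g-5p, the 3 arrays of 36 weeks lay above every 8-week array, as they did for 9.12% of all tested miRNAs. The 5p members move together and may cross-react, so these are not 6 separate observations, and the ages compared lay on different slides.

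The same 6 members lay above every 4-week array, as did 3.86% of the tested miRNAs, and these ages too lay on different slides. The 5p median was 0.87 against -0.06 over all. None passed that comparison (limma adjusted p = 0.748 for let-7d-5p, which differed by 1.68 ± 0.67). Against 58 weeks, within the second slide, let-7a-5p, let-7b-5p, let-7c-5p, let-7d-5p and let-7f-5p had every 58-week array below every remaining 36-week array, as did 8.77% of the tested miRNAs. The 5p median there was -1.0 against 0.06 over all, and again none passed (limma adjusted p = 1.00).

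These orders depended in part on scaling. The 7 5p members were higher at 36 than at 8 weeks, and above the median of all tested, under 4 other treatments of the signal: no scaling, another background correction (normexp), the deposited total signal and quantile normalization, all without 36-week replicate 4. Their median minus that of all tested was 0.68 with the scaling used, 0.67 without scaling and 0.70 with quantile normalization. The lack of overlap was less stable: against 8 weeks it held for 2 of 7 without scaling (2.46% of all tested) and 4 of 7 with quantile normalization (3.16%). Against 4 weeks it held for 0 of 7 without scaling (0% of all tested) and 5 of 7 with quantile normalization (4.91%). For 58 against 36 weeks it held for 5 of 7 without scaling (5.96%) and 2 of 7 with quantile normalization (4.56%), where let-7i-5p was higher at 58 weeks by 0.03.

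Both probes of each 5p member gave a higher value at 36 than at 8 weeks without that array. The differences ranged from 1.48 to 1.71 for let-7a-5p, 1.21 to 1.23 for let-7b-5p, 1.44 to 1.5 for let-7c-5p, 1.89 to 2.24 for let-7d-5p, 0.76 to 1.76 for let-7f-5p and 0.84 to 0.90 for let-7i-5p. They were 1.00 for both probes of let-7g-5p. The 4 probes of let-7d-3p ranged from 0.49 to 1.80 and those of let-7b-3p from 1.52 to 1.90. Probes agreed less elsewhere. At 58 against 8 weeks those of let-7f-5p differed in sign (-0.19 and 0.79), while all probes of the other tested members were higher. At 58 against 4 weeks those of let-7a-5p differed in sign (-0.16 and 0.05), and those of let-7d-3p ranged from 0.12 to 1.07.

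**Figure D2:**
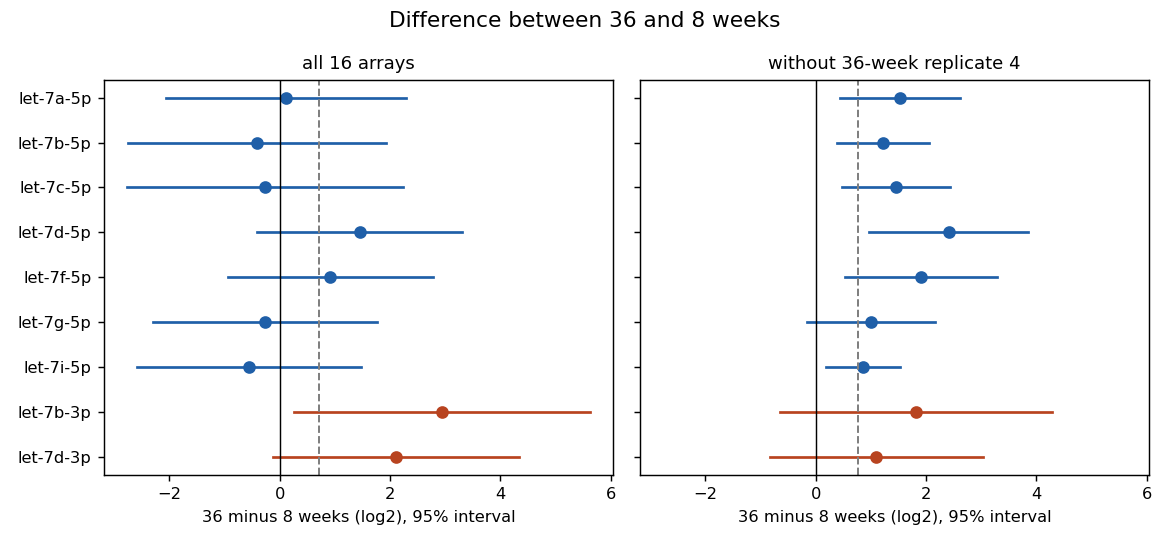
Difference between 36 and 8 weeks (log2 of the scaled signal) for the 9 tested members, with limma's 95% interval, over all 16 arrays on the left and without 36-week replicate 4 on the right. The dashed line is the median over all 285 tested miRNAs, 0.71 on the left and 0.77 on the right. On the right all 7 5p members (blue) lie above 0 and above that line, from 0.86 for let-7i-5p to 2.41 for let-7d-5p.

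The 3p strands changed their result when the 3 marked arrays were left out. Without them, let-7d-3p averaged 3.60 ± 0.21 (SD, n = 2) in the youngest mice, 4.06 ± 1.15 (n = 4) by 8 weeks, 5.16 ± 0.34 (n = 3) by 36 weeks and 5.82 ± 0.66 (n = 4) in the oldest. The slope per doubling of age was then 0.57 ± 0.13 (SE, limma adjusted p = 0.0178) for let-7d-3p and 0.62 ± 0.19 (adjusted p = 0.0314) for let-7b-3p. In that setting 54.7% of all tested miRNAs passed the trend and 38.2% passed it with a higher level at older age. let-7d-3p also passed 58 against 4 weeks (2.22 ± 0.65, limma adjusted p = 0.0474), where 12.3% of all tested miRNAs passed and 0.702% passed with a higher level at 58 weeks. The 5p members had slopes of 0.13 for let-7g-5p to 0.37 for let-7d-5p in that setting, and none of the 7 passed. These slopes compare arrays on different slides.

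The 3p values moved with the background of the array. Over the 16 arrays, let-7b-3p correlated with log2 of the negative-control SD at Pearson r = 0.917 and Spearman rho = 0.961, and let-7d-3p at r = 0.899 and rho = 0.882. The permutation p was 1e-05 for each r, the smallest that 100000 permutations can give, or 9e-05 after adjustment over the 18 relations computed (each rho had an adjusted p of 0.00018). Without the 2 arrays farthest from the median background, r was 0.861 and 0.727. Within slides, over 8 arrays each, it was 0.969 and 0.923 for let-7b-3p and 0.937 and 0.942 for let-7d-3p. This relation was computed for the let-7 members only, so it cannot be called particular to them. Of 96 other tested miRNAs with 8 or more C, 93 were also higher on 36-week replicate 4 than on the other arrays of that age. The part that background plays in the slopes of the 3p members was not tested.

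For the 5p members the same correlation was -0.45 (let-7f-5p) to -0.69 (let-7i-5p), with permutation p-values that did not pass adjustment (0.153 for each), and it rested on the most extreme arrays. Without 36-week replicate 4 and 4-week replicate 1, r was 0.14 to 0.37. Spearman's rho over the 16 arrays was -0.12 to 0.15. On the first slide r was -0.27 to 0.51 and on the second -0.97 to -0.81, where the array at the floor lies.

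**Figure D3:**
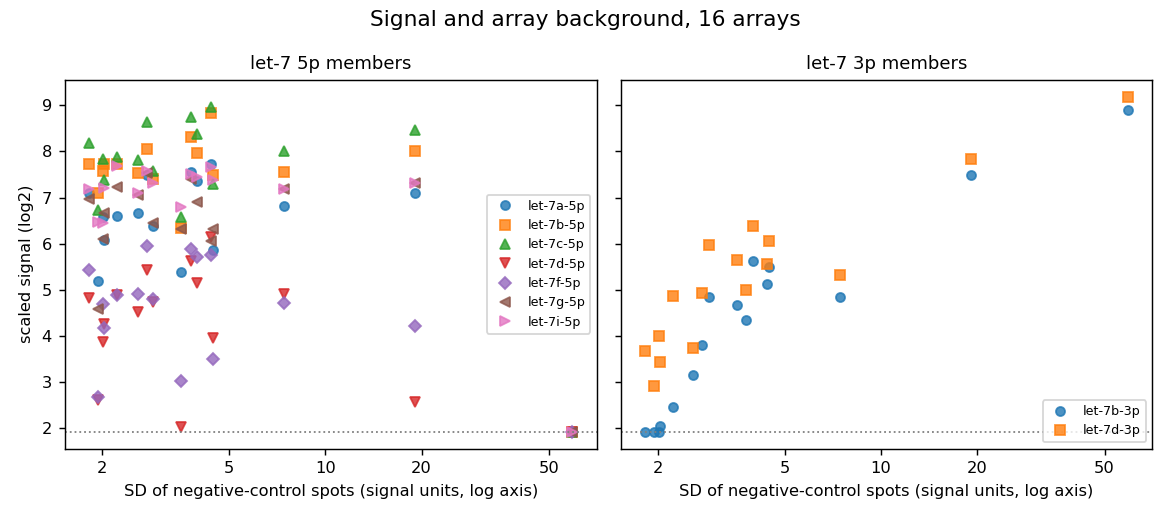
Scaled signal (log2) of each tested member against the SD of the negative-control spots on a log axis, 16 arrays, 5p members on the left and 3p members on the right, with the floor of 1.92 dotted. The 3p values tended to rise with the SD, to 8.89 (let-7b-3p) and 9.19 (let-7d-3p) at 59.3. The rise was uneven: at an SD of 7.45 they were 4.85 and 5.32, below 5.50 and 6.06 at 4.45. The 5p values have no such order below an SD of 19.1 and are at the floor at 59.3.

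The difference between the strands of a hairpin showed this contrast directly. Its size mixes the response of different probes, so it is compared only between arrays. On 36-week replicate 4 both 5p strands were at the floor, so the values there are lower bounds. For let-7d, the 3p minus the 5p log2 signal was at least 7.27 on that array and -0.63 to -0.51 on the other arrays of that age. For let-7b it was at least 6.97 there against -4.25 to -3.71. The 2 strands of let-7d correlated at r = -0.33 over 16 arrays and 0.27 over the 13 unmarked ones, and those of let-7b at -0.50 and 0.17. The 3p strands of the different hairpins correlated with each other at 0.97 and 0.92.

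Base content was a feature that the choice of members had not used. Of the 285 tested miRNAs, 244 had a RefSeq sequence. Across these, the number of C in the mature sequence correlated at r = 0.81 with the log2 signal on 36-week replicate 4 minus the mean of the other 3 arrays of 36 weeks, and the number of G at -0.65. The same comparison on 4-week replicates 1 and 4, against the unmarked arrays of that age, gave r = 0.80 and 0.71 for C. miRNAs are not independent replicates and share these arrays, so the values are a description. The mean level over all arrays was nearly unrelated to the number of C (r = -0.07).

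On 36-week replicate 4 the let-7 members lay at both ends of that relation. The 7 tested 5p members, with 0 or 1 C, differed on 36-week replicate 4 by -3.82 (let-7d-5p) to -6.86 (let-7c-5p), with that array at the floor for each, so these differences depend on the floor. Another 13 tested miRNAs had 0 or 1 C, and 10 of these were lower on that array, with a median of -1.78 and a lowest value of -3.91. The 3p members were higher by 4.46 (let-7b-3p) and 4.03 (let-7d-3p). Of the 96 other miRNAs with 8 or more C, 93 were higher, with a median of 4.62. On 4-week replicate 1, against the unmarked arrays of that age, the 3p members were higher by 4.89 and 4.24. The 5p members there ranged from -1.83 (let-7d-5p) to 0.86 (let-7c-5p). Over the 13 unmarked arrays the age slope also correlated with base content, at r = 0.70 for C and -0.78 for G. Among the others with 8 or more C the median slope was 0.55, against 0.62 for let-7b-3p and 0.57 for let-7d-3p, so both 3p slopes lay near that of miRNAs of like C content. The 5p slopes did not. They were 0.13 (let-7g-5p) to 0.37 (let-7d-5p), against a median of -0.26 for the other 13 with 0 or 1 C. Those 13 were not matched for G. Most of them held more G than any 5p member, up to 14 G in miR-7011-5p against 7 to 10 in the 5p members. miR-1187 and miR-669n, with 8 G each, had slopes of -0.21 and -0.17. What base content contributes to the values was not tested.

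**Figure D4:**
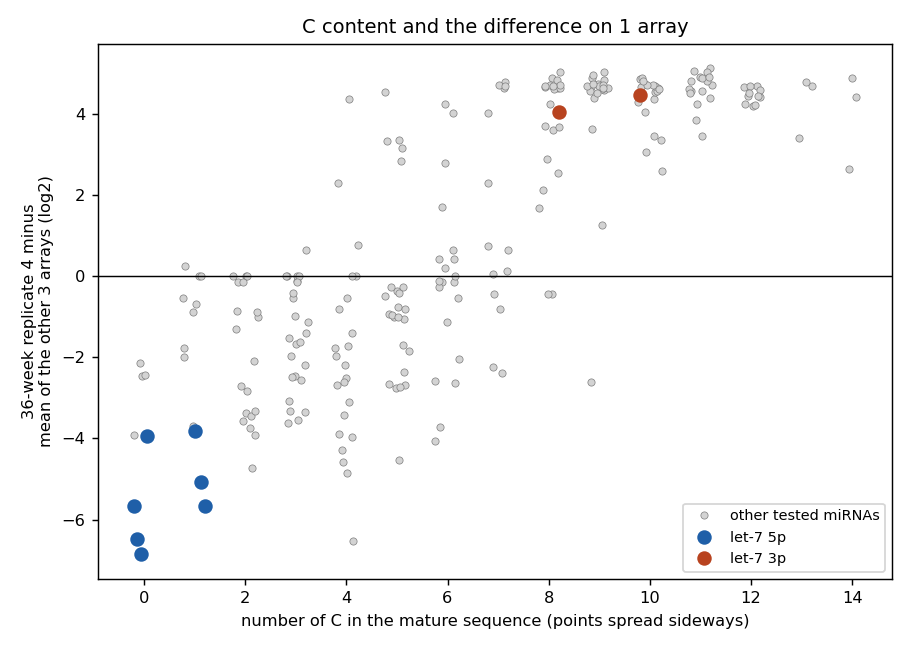
Each point is 1 of 244 tested miRNAs, with the number of C in its mature sequence on the x axis and the log2 signal on 36-week replicate 4 minus the mean of the other 3 arrays of that age on the y axis. The 7 5p members (blue, 0 or 1 C) lie between -6.86 and -3.82, and the 3p members (orange, 8 and 10 C) lie at 4.03 and 4.46, among the other C-rich miRNAs.

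The 5p members moved together from array to array to differing degrees. Over the 13 unmarked arrays, the 21 pairs of tested 5p members correlated at r = 0.36 (let-7b-5p and let-7g-5p) to 0.99 (let-7a-5p and let-7c-5p). The 3 pairs that differ at 1 base had a median r of 0.98, the 6 pairs at 2 bases 0.79, the 5 pairs at 3 bases 0.81, the 6 pairs at 4 bases 0.66 and the 1 pair at 6 bases 0.80. The points share arrays, scaling and possibly cross-reacting probes. Against the mean 5p profile, let-7a-5p, let-7c-5p, let-7d-5p and let-7f-5p each correlated at 0.97, let-7b-5p at 0.88, let-7i-5p at 0.79 and let-7g-5p at 0.72, and the 3p members at 0.25 and 0.29. Outside the family, miR-34a-5p and miR-15b-5p reached 0.72 and 0.71 over the same arrays, near the value of let-7g-5p. Each 5p member is itself part of that profile, which raises its correlation by construction. The 3p members are not part of it, so the 5p and 3p values are not on an equal footing.

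The 5 other miRNAs most like the mean 5p profile over all 16 arrays were miR-652-3p (r = 0.89), the erythrocyte-rich miR-16-5p (0.87), miR-3473g (0.86), miR-93-5p of the miR-106b cluster (0.85) and miR-15b-5p, a relative of miR-16 (0.83). Without the 2 arrays of highest background these fell to 0.53, 0.32, 0.26, 0.35 and 0.69. Over those 14 arrays the closest were miR-15b-5p (0.69), miR-125a-5p (0.66), the p53-induced miR-34a-5p (0.65), the leukocyte miR-142a-3p (0.61) and miR-125b-5p (0.58).

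Relatives of the family added little signal. miR-98-5p and let-7k, which share the seed GAGGUAG, were each detected on 0 arrays. So was let-7j, whose bases 2 to 8 are GAGGUAU. Of 9 other opposite strands of let-7 hairpins listed, 8 had probes here, 6 had a detection call on 1 array or more and 0 were tested. Among 6 miRNAs that share let-7 clusters elsewhere in the genome, miR-99a-5p, miR-125a-5p and miR-125b-5p were tested, and none passed over all arrays. Their slopes per doubling of age were -0.03, 0.25 and -0.07, and the slope of miR-125a-5p without the marked arrays was 0.36 (limma adjusted p = 0.0289). In that setting 54.7% of all tested miRNAs passed the trend, and 38.2% passed it with a higher level at older age.

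Blood cells carry let-7, so their markers are given beside these values. Red cell RNA was gauged by how far the log2 signal of the erythrocyte miR-451a exceeded that of miR-23a-3p. This value ranged, youngest age first, from 2.64 to 4.19, 2.14 to 3.65, 2.62 to 4.55 and 2.54 to 3.08, and 36-week replicate 4 had 2.62. Its correlation with the 5p members over 16 arrays was r = 0.09 to 0.34, and none passed (permutation, lowest adjusted p = 0.366). The 4 tested of 6 erythrocyte markers had a summed level (log2 of the sum) of 12.33 to 13.00, 11.56 to 12.40, 11.73 to 12.61 and 12.13 to 12.93 in the same order of ages, and each other age overlapped the 4-week range. The 3 tested of 5 leukocyte markers ranged from 6.06 to 7.07, 5.12 to 6.63, 6.69 to 8.08 and 7.43 to 7.77, so 36 and 58 weeks lay above 8 weeks. Among single tested miRNAs, 2.46% at 36 weeks and 7.72% at 58 weeks lay above 8 weeks without overlap. The gap to 36 weeks was narrow (6.63 to 6.69), these ages lay on different slides, and this sum was not tried under other scalings. Without the marked arrays, 2 of these 3 (miR-142a-3p and miR-150-5p) passed the trend, both higher with age (limma adjusted p = 0.0314 and 0.0497), where 38.2% of all tested miRNAs passed with a higher level. miR-142a-5p and miR-155-5p of that list were detected on 0 arrays. The 3 tested of 4 platelet and endothelial markers ranged from 8.58 to 9.07, 7.85 to 9.36, 6.93 to 9.68 and 9.29 to 9.59, and the 2 liver markers from 5.49 to 10.29, 4.54 to 8.61, 6.05 to 8.94 and 7.35 to 7.96. The part of blood cells in the let-7 values was not tested.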

How the data were processed

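Serum RNA from 16 male mice was measured on 1-colour Agilent arrays, 1 per mouse. The intensity values are the authors' deposited scanner output, made with Agilent Feature Extraction 11.5 per the submitters' processing notes: background-subtracted spot intensity, outlier flags and a detection call per miRNA. No scaling between arrays is recorded per the file headers. Between 2.32% and 4.48% of miRNA spots per array were left out as outliers, and no spot was saturated. Here spots were averaged per probe and probes per miRNA, and arrays were scaled to 1 common 75th percentile of the 24 miRNAs that all 16 arrays detected. Scaled values under a floor of 3.79 were raised to it before log2. miRNAs detected on at least 3 of 4 arrays of an age were tested, 285 in all. The comparisons used lmFit and eBayes of limma (version 3.58.1, R version 4.3.3; 1 mean per age, or a slope on log2 of age), with Benjamini-Hochberg adjustment over all tested miRNAs and a threshold of 0.05. The steps were tested on simulated data. All adjusted p-values are from limma unless a permutation is named. The number of arrays limits the precision.

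All members are named. In each comparison those that passed, or otherwise the 3 with the smallest p, are given with their values, and members without overlap between ages were singled out after their values were seen. The members, the marker and relative lists and the comparisons were chosen with earlier results of these data known, and 4 combined alternatives were added after seeing the data. Alternatives covered scaling, signal, background correction, detection filter, floor, probe choice, variance model, array weights, slide, replicate number and arrays left out.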

Additional observations from a re-analysis of the deposited data

Results flagged for a closer look

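A value was singled out where 1 array of an age stood apart from the other 3 by more than Dixon's 95% critical value for 4 values. Among 52 groups tried, 13 did so, where chance gives about 1 in 20, or 2.6. The groups share the same arrays and the members move together, so they are not separate trials and the excess was not tested. Of the 13, 10 were on 36-week replicate 4. The log2 signals there were 1.92 for let-7a-5p (others 7.49 to 7.74), 1.92 for let-7b-5p (8.06 to 8.84), 1.92 for let-7c-5p (8.63 to 8.95), 1.92 for let-7d-5p (5.44 to 6.14), 1.92 for let-7f-5p (5.75 to 5.96) and 1.92 for let-7i-5p (7.52 to 7.65). let-7d-3p was at 9.19 (4.93 to 5.55). The 3p minus 5p difference was at least 7.27 for let-7d (-0.63 to -0.51) and at least 6.97 for let-7b (-4.25 to -3.71), both lower bounds because the 5p strands were at the floor, so they add nothing independent of the values above, and the SD of negative-control spots was 59.3 (2.76 to 4.39). let-7g-5p, also at 1.92 there, and let-7b-3p, at 8.89, did not pass because the other arrays of that age spread more widely. The remaining 3 were on 8-week replicate 3: let-7b-3p at 4.67, with the other arrays of 8 weeks at or next to the floor of 1.92, its strand difference of -1.68 (-5.81 to -5.18 on the others, set in part by that floor) and a negative-control SD of 3.54 (1.82 to 2.01).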

How the results depend on the processing

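The count of members past the threshold was 0 in all 8 comparisons and stayed 0 in 262 repeats under an alternative and changed in 10. For the trend it was 1 with normexp background correction (let-7d-5p, 0.20, limma adjusted p = 0.0307, where 7.72% of all tested miRNAs passed). It was also 1 with normexp without 36-week replicate 4, where the share of all tested miRNAs is not given here, so that call cannot be judged against it. It was 2 (let-7b-3p and let-7d-3p) without the marked arrays, where 54.7% of all tested miRNAs passed, or with array weights, where 65.6% did. For 58 against 4 weeks it was 1 without the marked arrays (12.3% of all tested) and 2 with array weights. Array weights, which gave 36-week replicate 4 a weight of 0.06, also gave 3 for any difference, 6 for 36 against 8, 3 for 58 against 8 and 1 for 58 against 36 weeks, and 62.1% to 76.5% of all tested miRNAs then passed in these comparisons, except 15.1% in the last.

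Reversed values were as follows, and the cause was not tested beyond the array left out. With slide as a block the slopes were -0.54 for let-7d-5p, -1.65 for let-7b-3p and -0.86 for let-7d-3p. For 8 against 4 weeks without the marked arrays, let-7b-3p differed by 0.0035 and let-7d-3p by 0.46. For 36 against 4 weeks, let-7i-5p was at 0.20 with normexp, 0.36 with array weights and 0.43 without the marked arrays, and let-7g-5p at 0.31 and 0.14 in the last 2. For 58 against 4 weeks, let-7d-5p was at -0.41 and let-7d-3p at -0.30 without scaling, and let-7g-5p at 0.090 with quantile normalization and 0.026 with normexp (both also without 36-week replicate 4). For 58 against 36 weeks, let-7b-5p was at -0.22 with normexp, and let-7b-5p, let-7g-5p and let-7i-5p were at -0.66, -0.69 and -0.12 with array weights and at -0.76, -0.27 and -0.12 without the marked arrays.

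Leaving out each array in turn gave -1.53 to 0.38 for let-7i-5p at 36 against 4 weeks. At 58 against 36 weeks it gave -0.76 to 1.55 for let-7b-5p, -0.27 to 1.60 for let-7g-5p and -0.12 to 1.79 for let-7i-5p, with the signs turned without 36-week replicate 4 alone. The combined alternatives, chosen after seeing the data, all left that array out as well. At 36 against 4 weeks they gave -0.48 for let-7d-3p without scaling, 0.29 and 0.065 for let-7g-5p with quantile normalization and normexp, and 0.57 for let-7i-5p with quantile normalization. At 58 against 36 weeks, let-7b-5p was at -1.24 without scaling, -0.46 with quantile normalization and -0.53 with normexp, let-7g-5p at -0.75, -0.20 and -0.039, and let-7i-5p at -0.60 without scaling. The replicate numbers shared by the ages did not pair the arrays: 11 of 24 same-number pairs had deviations that correlated over 0.1 (r = -0.90 to 0.81), and 2 of 16 arrays correlated best with their own number. With the replicate block the count was 0 in all 8 comparisons. Scaling to the 75th percentile over all miRNAs was not run, because that percentile was -0.15 on 58-week replicate 3.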

Other observations

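The remaining 3p strands of let-7 hairpins, too rarely detected to be tested, were seen chiefly on the arrays of highest background. Of the 8 on the array, 6 were detected on 4-week replicate 1 and 3 on 36-week replicate 4. Of all 1881 mouse miRNAs, 360 were detected on 4-week replicate 1, the most of any array, and 205 on 36-week replicate 4. let-7e-3p was detected on 6 arrays, while its main strand let-7e-5p was detected on 0. let-7a-2-3p and let-7g-3p were detected on the same 5 arrays, the 3 marked ones and the unmarked 36-week replicate 3 and 58-week replicate 1. let-7e-3p was detected on these and on 58-week replicate 2. On 36-week replicate 4 the log2 signals were 8.60 for let-7e-3p, 8.46 for let-7a-2-3p and 8.08 for let-7g-3p, and these strands hold 9, 8 and 8 C. let-7c-1-3p, let-7f-1-3p and let-7i-3p, with 8 C each, were detected on 4-week replicate 1 alone. These arrays were picked out after the values were seen, and the part of array background in these detections was not tested.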
